A study of Mus musculus with 23 samples.

Results

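The 10 core genes of the disease-associated microglia (DAM) signature were followed through 23 RNA-seq libraries of GFP+ microglia sorted from mouse retinas: Apoe, Trem2, Tyrobp, Lpl, Cst7, Itgax, Clec7a, Axl, Gpnmb and Lgals3. They were chosen by name, and 10 of the 35825 rows of the deposited table carry their Ensembl identifiers. All 10 were measured in every library and were among the 17102 genes tested, those with 10 or more normalized counts in 3 or more libraries. Every mouse carried GFP in the Cx3cr1 locus (B6.129P2(Cg)-Cx3cr1tm1Litt/J, bred from heterozygous mice), so that GFP marks all Cx3cr1-expressing cells and is not limited to microglia. Mice that carry only this allele are called WT here, and mice labelled Spp1KO/Cx3Cr1-GFP are called KO. The paper describes the latter as bred to be homozygous for a knockout allele of Spp1 (B6.129S6(Cg)-Spp1tm1Blh/J), the gene for secreted phosphoprotein 1, osteopontin. The Spp1 reads found in libraries with this label are given below. Retinas were naïve, taken 4 weeks after elevation of the intraocular pressure (IOP) by microbeads injected into the anterior chamber, or taken 7 days after optic nerve crush (ONC) behind the globe. The labels say control for the libraries called naïve here. The paper's methods describe saline injections for controls of the microbead model, so it is not settled whether these eyes were injected. The groups held 4 libraries each, except for 3 of WT ONC. Both sexes were used, and the ages of the mice are not given in the sources used here. The study's methods put retinas of several mice into a sort, while a legend on gene expression counts single mice, so it is not settled whether a library is a mouse or a pool, and p-values measure the spread between these libraries. IOP and ONC were sampled at different times, so that the kind of injury and the time cannot be told apart.

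The DAM state is the profile that microglia take on around amyloid plaques, dying neurons and myelin debris. TREM2 is a lipid-sensing receptor on the microglial surface that signals through its adaptor TYROBP (DAP12), and the later step of the DAM programme, with genes for lipid uptake, phagocytosis and lysosomes, is known to need TREM2. In the injured retina microglia clear the debris of dying retinal ganglion cells. The 10 genes include surface receptors (Trem2, Clec7a, Axl, Itgax), the signalling adaptor Tyrobp, a lysosomal protease inhibitor (Cst7), lipid proteins (Lpl, Apoe), a galactose-binding lectin (Lgals3) and a glycoprotein of melanosomes and lysosomes (Gpnmb).

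In the GENCODE M21 annotation of mouse build GRCm38 the 10 genes sit on 6 chromosomes and overlap no other annotated gene. Apoe (ENSMUSG00000002985.16) lies on chromosome 7, bases 19696109 to 19699188 on the minus strand, Tyrobp (ENSMUSG00000030579.10) on chromosome 7, bases 30413760 to 30417585 on the plus strand, Axl (ENSMUSG00000002602.16) on chromosome 7, bases 25757273 to 25788705 on the minus strand and Itgax (ENSMUSG00000030789.9) on chromosome 7, bases 128129547 to 128150657 on the plus strand. Clec7a (ENSMUSG00000079293.11) lies on chromosome 6, bases 129461591 to 129472779 on the minus strand and Gpnmb (ENSMUSG00000029816.10) on chromosome 6, bases 49036546 to 49070929 on the plus strand. Trem2 (ENSMUSG00000023992.14) lies on chromosome 17, bases 48346401 to 48354147 on the plus strand and Lpl (ENSMUSG00000015568.16) on chromosome 8, bases 68880491 to 68907448 on the plus strand. Cst7 (ENSMUSG00000068129.5) lies on chromosome 2, bases 150570415 to 150578944 on the plus strand and Lgals3 (ENSMUSG00000050335.17) on chromosome 14, bases 47367751 to 47386160 on the plus strand.

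RefSeq promoter entries (GRCm38.p6) were matched for 8 of the 10 genes, 11 entries in all. The 250 bases before the start site are shown for Cst7, Itgax, Clec7a and Axl, the 4 genes with the largest increases after nerve crush in WT microglia. Capitals mark 3 searched motifs, read on both strands: CACGTG (the E-box of MITF and TFE factors), GGAAGT (an ETS core as bound by PU.1) and TGANTCA (AP-1). Sequences run 5′ to 3′ along the gene.
Cst7, chr2:150570165-150570414, plus strand: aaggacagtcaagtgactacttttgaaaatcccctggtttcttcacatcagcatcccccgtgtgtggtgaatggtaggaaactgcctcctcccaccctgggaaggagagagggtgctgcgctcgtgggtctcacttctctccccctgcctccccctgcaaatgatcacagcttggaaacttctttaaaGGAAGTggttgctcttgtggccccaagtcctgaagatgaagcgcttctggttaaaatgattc
Itgax, chr7:128129300-128129549, plus strand: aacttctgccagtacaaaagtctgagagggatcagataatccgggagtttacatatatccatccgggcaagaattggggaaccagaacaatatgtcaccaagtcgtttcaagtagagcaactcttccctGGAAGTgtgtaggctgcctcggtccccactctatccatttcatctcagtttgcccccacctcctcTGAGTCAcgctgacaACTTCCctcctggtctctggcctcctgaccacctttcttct
Clec7a, chr6:129472780-129473029, minus strand: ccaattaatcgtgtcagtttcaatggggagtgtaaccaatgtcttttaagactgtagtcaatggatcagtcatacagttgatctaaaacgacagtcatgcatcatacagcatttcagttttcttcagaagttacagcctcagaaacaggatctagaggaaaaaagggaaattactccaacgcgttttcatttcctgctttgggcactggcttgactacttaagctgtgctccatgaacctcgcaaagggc
Axl, chr7:25788734-25788983, minus strand: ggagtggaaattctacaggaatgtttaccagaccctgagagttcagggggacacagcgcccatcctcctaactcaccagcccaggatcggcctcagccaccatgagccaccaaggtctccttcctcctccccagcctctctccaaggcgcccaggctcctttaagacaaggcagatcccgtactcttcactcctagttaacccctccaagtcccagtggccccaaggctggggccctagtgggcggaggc
The Cst7 window held 1 ETS match, and the Itgax window held 2 ETS matches, 1 of them on the reverse strand, and 1 AP-1 match, while the windows of Clec7a and Axl held none of the 3 motifs. Across the 8 genes, the ETS letters were found for 2 (Cst7 and Itgax), the AP-1 letters for 2 (Itgax and Trem2) and the E-box for 0. Of all 32851 promoter windows of this length, 19.7% held the ETS letters, 6.75% the AP-1 letters and 6.02% the E-box. A match describes the letters in the window and not a bound site.

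Libraries held 22180480 to 30296094 reads on genes (median 26914869). A gene with no read could still have had up to 3 reads, or 2.41 to 4.03 normalized counts depending on the library, by counting error alone. Spp1 had 1228, 1518, 334 and 492 normalized counts in the WT naïve, 2353, 2409.8, 1343 and 2772 in the WT IOP and 14557, 16067 and 22906 in the WT ONC libraries. It had 350.2, 53.1, 6.78 and 81.6 in the libraries labelled KO naïve, 25.5, 811, 9.28 and 761 in those labelled KO IOP and 4750.3, 6811, 15.0 and 6226 in those labelled KO ONC. Spp1 reads were thus present in libraries of every KO group, most of all in 3 of the 4 labelled KO ONC, and KO below always means the label. All 7 defining microglial markers (among them Aif1, Itgam, Ptprc, Csf1r, P2ry12 and Tmem119) were detected in every library. Their sum was 2.32 to 2.95% of the normalized counts in WT naïve and 2.42 to 3.08% in KO IOP libraries. In KO naïve replicates 1, 2 and 4 it was 1.01%, 1.18% and 1.31%, against 2.95% in replicate 3, and the sum of 12 rod photoreceptor genes was 3.14%, 3.32% and 3.70%, against 1.18%. In WT IOP replicates 1 and 4 the microglial markers were at 1.51% and 1.68%, against 2.42% and 2.58% in replicates 2 and 3, and 11 lens genes were at 0.120 to 0.898% in the WT IOP libraries and at most 0.0162% elsewhere. Neutrophil and T or NK cell markers stayed at or below 0.00122% in every library. Monocyte markers reached 0.0108% in KO IOP libraries and at most 0.00693% in the other groups. Their median was 0.00782% in KO IOP, 0.00193% in KO naïve and 0.00236% in WT naïve libraries, and their part in the results below was not tested. Cx3cr1, the locus that carries GFP, had 1079, 1233, 1067 and 952 normalized counts in KO IOP and 26836, 54612, 51592 and 31626 in WT IOP libraries. It had 9417, 23090.1, 26283 and 24661 in KO naïve and 46130.3, 33812, 12869 and 22396 in KO ONC libraries, so that KO IOP also stood apart within its genotype. The sum of 4 Y-linked genes was 0.000367 to 0.000636% of the counts in KO IOP libraries and 0.000701% in KO naïve replicate 3, against 0.0155%, 0.0236% and 0.0229% in KO naïve replicates 1, 2 and 4 and 0.00927 to 0.0166% in KO ONC libraries. In the WT groups it was 0.000413 to 0.0217% (naïve), 0.00532 to 0.0195% (IOP) and 0.000334 to 0.0125% (ONC), so Y-linked reads were not spread evenly over the groups. The parts of Cx3cr1, of sex and of lens material in the results below were not tested.

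**Figure D1:**
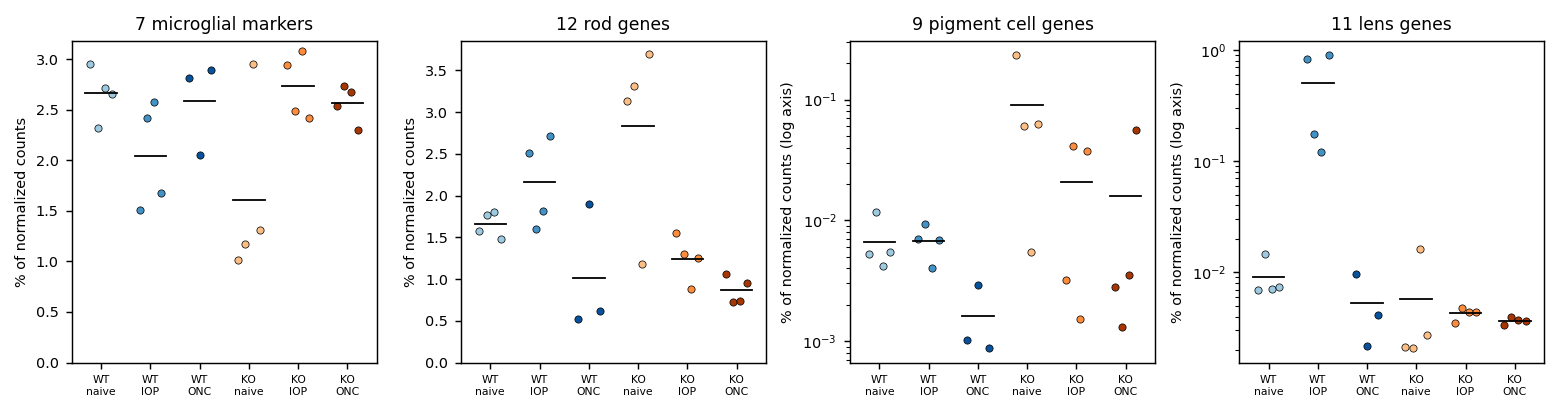
Share of all normalized counts held by 7 microglial markers, 12 rod genes, 9 pigment cell genes and 11 lens genes in each library (points, in replicate order within a group) with the group mean (line); the last 2 panels have log axes. KO naïve replicates 1, 2 and 4 are low in microglial markers and high in rod and pigment cell genes, and all 4 WT IOP libraries are high in lens genes.

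To set the genes beside each other, levels were divided by the length of the longest annotated transcript. In WT naïve microglia Apoe had the highest level, with 165206 ± 41056 normalized counts per kilobase (mean ± SD, n = 4), followed by Tyrobp with 46854 ± 3232. Trem2 (2966 ± 195), Axl (2396 ± 442) and Clec7a (1813 ± 359) came next, and the ranges of Trem2 and Axl per kilobase overlapped, as did those of Axl and Clec7a. Lpl (664 ± 52.1), Lgals3 (454 ± 150.0), Gpnmb (339.9 ± 209) and Cst7 (334 ± 59.3) followed, and Itgax, the integrin alpha X chain CD11c, was lowest with 159 ± 23.8. In WT ONC libraries Cst7 reached 5734 ± 123 normalized counts per kilobase (n = 3), and its place among the 10 levels went from 9 to 5. Apoe and Tyrobp held places 1 and 2 by their means in all 6 groups, but in WT ONC libraries their ranges overlapped, from 21999.9 to 150395 for Apoe and 54135 to 108079 for Tyrobp, and Tyrobp was above Apoe in replicate 1. With the mean transcript length in place of the longest, the level of Trem2, whose longest transcript has 4784 bases and whose mean has 1864, is higher, and so the order of neighbours is a description only.

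**Figure D2:**
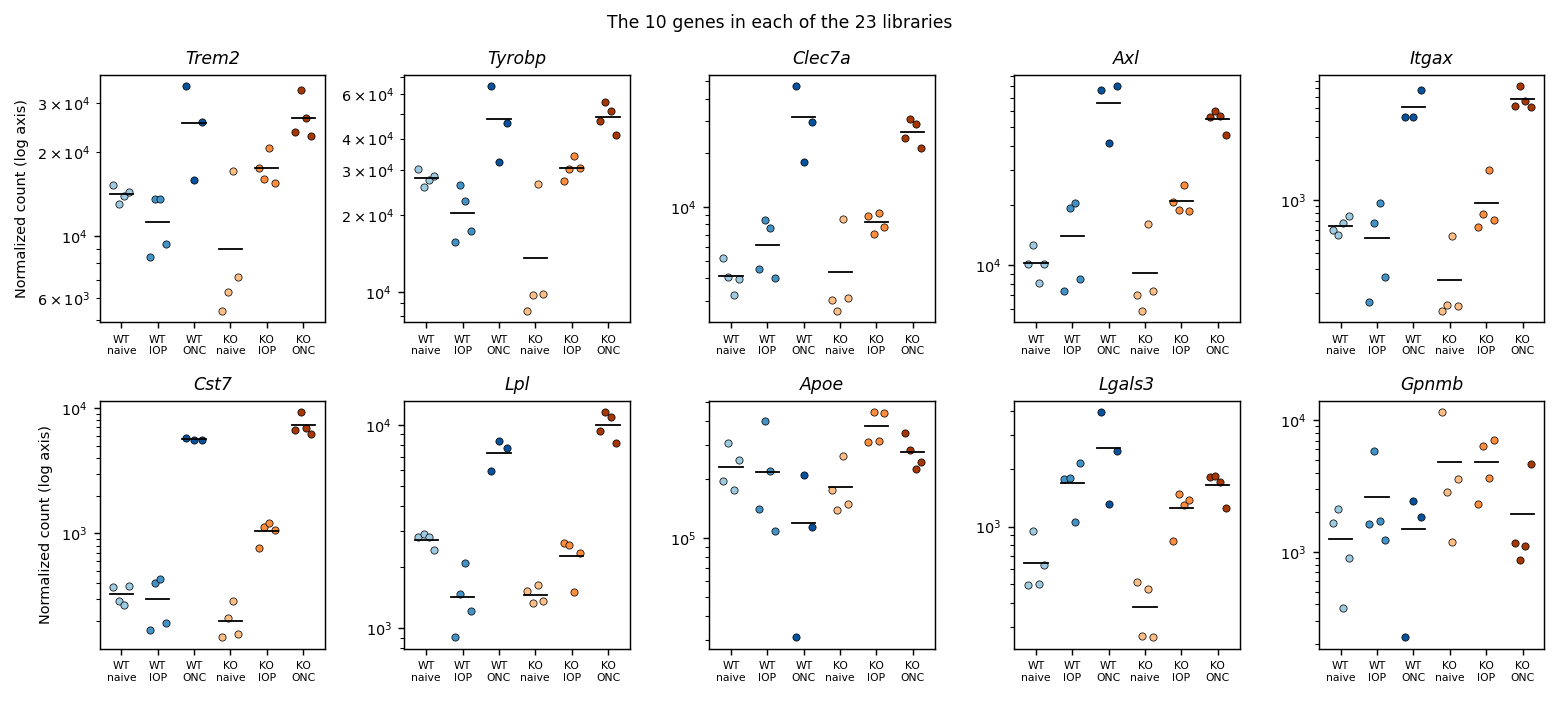
Normalized count (log axis) of each of the 10 genes in the 23 libraries, with points in replicate order within a group and a line at the group mean. Cst7, Itgax, Axl, Clec7a and Lpl are higher in every ONC library than in every naïve library of the same genotype, whereas Apoe and Gpnmb overlap between naïve and ONC libraries.

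Optic nerve crush was compared with naïve retinas first in WT microglia. In these libraries 6 of the 10 genes, Cst7, Itgax, Clec7a, Axl, Lgals3 and Lpl, rose after ONC, and none fell (limma on log2(normalized count + 1), called at a Benjamini-Hochberg adjusted p under 0.05 with a log2 fold change beyond 0.58 in either direction). Among all genes tested, 7.55% rose and 10.5% fell. The median log2 fold change of the 10 genes was 1.66, beside -0.10 over all genes tested.

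Cst7 encodes cystatin F, an inhibitor of lysosomal cathepsins, and had the largest change. Its normalized counts were 376, 289, 269 and 382 in the WT naïve and 5794, 5573 and 5595 in the WT ONC libraries. The 3 ONC values lay within a narrow band far above the naïve ones, with a log2 fold change of 4.12 (SE 0.30, limma, adjusted p = 5.15e-08). Itgax had 590.3, 546, 667 and 765 normalized counts in naïve and 4279, 4236 and 6788 in ONC libraries, with no overlap and a log2 fold change of 2.96 (SE 0.49, limma, adjusted p = 0.000226). Clec7a, which encodes the beta-glucan receptor dectin-1, had 5216, 4081, 3237 and 3976 normalized counts in naïve and 47163, 17812 and 29792 in ONC libraries. All 3 ONC values were above all naïve ones but differed among themselves, with replicate 1 highest and replicate 2 lowest, and the log2 fold change was 2.85 (SE 0.35, limma, adjusted p = 1.31e-05). Axl, a TAM receptor tyrosine kinase that takes up apoptotic cells through the bridging ligand GAS6, had 10125, 12647, 8049.5 and 10055 in naïve and 76585, 41125 and 80296 in ONC libraries. These groups did not overlap either, with a log2 fold change of 2.65 (SE 0.35, limma, adjusted p = 2.65e-05).

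Lgals3 (galectin-3) had 494, 949, 502 and 632 normalized counts in WT naïve and 3959, 1309.5 and 2478 in WT ONC libraries, a log2 fold change of 1.91 (SE 0.34, limma, adjusted p = 0.000527). With the mean of the border macrophage list as a covariate its log2 fold change was 1.996 and its adjusted p was 0.133 in limma. Lpl, lipoprotein lipase, had 2801, 2912, 2799.7 and 2422 in naïve and 5969.7, 8331 and 7690.2 in ONC libraries, with no overlap and a log2 fold change of 1.41 (SE 0.23, limma, adjusted p = 0.000188). Trem2 had 15288, 13060.5, 13967 and 14448 in naïve and 34522, 15932 and 25532 in ONC libraries. Tyrobp had 30328, 25703, 27444 and 28413 in naïve and 64523, 32319 and 46036 in ONC libraries. For both genes every ONC library was above every naïve one, but the log2 fold changes of 0.77 (SE 0.30) and 0.71 (SE 0.30) missed the threshold (limma, adjusted p = 0.0809 and 0.098). Without WT ONC replicate 2, the library with the lowest microglial markers of its group, the count rose from 6 to 9 genes: Trem2 and Tyrobp passed as well, and Apoe passed as lower (log2 fold change -1.94). With 4 libraries against 3, the exact two-sided permutation test of one gene cannot go below p = 0.0571, the value of all 8 genes whose WT groups did not overlap, where 26.4% of all genes tested did not overlap.

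In KO microglia 8 of the 10 genes rose after ONC, and 0 fell, where 12.7% of all genes tested rose and 11% fell. The median log2 fold change of the 10 was 2.43, beside -0.12 over all genes tested. The 8 genes were the 6 of WT microglia with Trem2 and Tyrobp, and for each of the 8 every KO ONC library was above every KO naïve library, where 26.5% of all genes tested did not overlap. In the same comparison 5 of the 7 microglial markers rose (median log2 fold change 1.26), while 10 of 12 rod genes (-1.26), 7 of 8 ganglion cell genes (-2.81), 6 of 11 Müller glia and astrocyte genes (-0.62) and 6 of 8 bipolar and amacrine cell genes (-1.25) fell. Cst7 had 149, 209.9, 291 and 159 normalized counts in KO naïve and 6695, 9267, 6877 and 6201 in KO ONC libraries, a log2 fold change of 5.19 (SE 0.27, limma, adjusted p = 1.07e-10). Itgax had 145, 162, 538 and 159 in naïve and 5143, 7331, 5620.1 and 5051 in ONC libraries, a log2 fold change of 4.75 (SE 0.45, limma, adjusted p = 1.33e-06). The Itgax range in naïve libraries was wide, since replicate 3 stood far above the other 3. Lpl had 1528, 1328, 1627 and 1365 in naïve and 9404, 11593, 10908 and 8201 in ONC libraries, with even values inside each group and a log2 fold change of 2.77 (SE 0.21, limma, adjusted p = 5.63e-08).

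The other 5 genes started from uneven naïve values. Clec7a had 3024, 2639, 8574 and 3133 normalized counts in KO naïve and 24199, 30745, 28751 and 21336 in KO ONC libraries (log2 fold change 2.76, SE 0.33, limma, adjusted p = 8.05e-06). Axl had 7006, 5846, 16096 and 7345 in naïve and 55569, 59981, 56571 and 45178 in ONC libraries (log2 fold change 2.70, SE 0.32, limma, adjusted p = 9.72e-06). Both rose from a naïve group in which replicate 3 alone was high. Trem2 had 5406, 6333, 17170.2 and 7160.3 in naïve and 23511, 33369.6, 26529 and 22788 in ONC libraries (log2 fold change 1.70, SE 0.28, limma, adjusted p = 0.000217). Tyrobp had 8402, 9679, 26563 and 9792 in naïve and 46847, 55773, 51319 and 41403 in ONC libraries (log2 fold change 2.01, SE 0.28, limma, adjusted p = 3.85e-05). In all 4 genes naïve replicate 3 was the highest of its group, and the summed microglial markers were highest in the same library. The share of Y-linked genes was lowest there, and its part was not tested. Lgals3 had 515, 267, 474 and 264 in naïve and 1824, 1837, 1704 and 1244 in ONC libraries (log2 fold change 2.17, SE 0.32, limma, adjusted p = 7.16e-05). Without KO naïve replicates 1, 2 and 4, where the lone naïve library is assumed to vary like the other groups, 3 genes were called: Lpl, Cst7 and Itgax, with log2 fold changes of 2.61, 4.62 and 3.41. The other values were then 1.60 for Clec7a, 1.75 for Axl, 1.78 for Lgals3, 0.61 for Trem2 and 0.87 for Tyrobp. With each library's values taken relative to the mean of its 7 microglial markers, Cst7, Itgax, Clec7a, Axl and Lpl rose after ONC in both genotypes, by 3.88, 2.72, 2.60, 2.41 and 1.17 in WT and 3.91, 3.46, 1.48, 1.41 and 1.48 in KO microglia on the log2 scale. Lgals3 was called as higher too in WT, for 6 genes in all, but not in KO (0.88). Tyrobp was called as higher too in KO (0.72), and Gpnmb was called as lower in KO (-2.47), for 7 genes in all. Trem2 was then 0.53 and 0.42, under the fold threshold. The median of all genes on this scale was -0.34 in WT and -1.41 in KO. In a bulk library fewer cells of a type and less RNA per cell cannot be told apart.

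**Figure D3:**
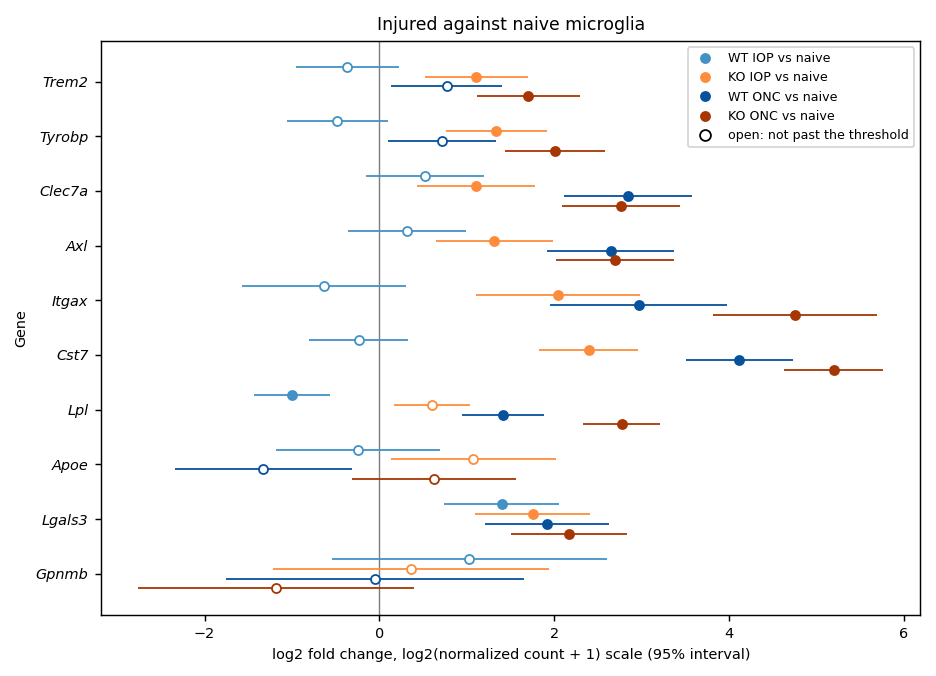
Log2 fold change of the 10 genes against naïve libraries of the same genotype (points) with its 95% interval from limma (lines), for IOP and ONC in WT and KO; filled points passed the threshold. The ONC changes of Cst7, Itgax, Clec7a and Axl lie above 2 in both genotypes, and the IOP changes of WT lie below 0 for 6 of the 10 genes and those of KO above 0 for all 10.

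After IOP elevation in WT microglia, 2 of the 10 genes passed the threshold, Lgals3 as higher and Lpl as lower, where 1.56% of all genes tested passed it in either direction. The median log2 fold change was -0.24, beside -0.02 over all genes tested. Lgals3 had 494, 949, 502 and 632 normalized counts in naïve and 1771, 1784, 1051 and 2156 in IOP libraries, and Lpl 2801, 2912, 2799.7 and 2422 in naïve and 903, 1482, 2101 and 1221 in IOP libraries. For both genes the groups did not overlap (as for 13.8% of all genes tested), with log2 fold changes of 1.40 (SE 0.32) and -1.002 (SE 0.21) (limma, adjusted p = 0.0257 and 0.0157). Neither call held when WT IOP replicates 1 and 4, which were low in microglial markers, were left out: the log2 fold changes were then 1.14 and -0.63, with limma adjusted p = 0.412 and 0.417. Without 1 library, the Lgals3 call was lost for WT naïve replicates 1, 3 or 4 and WT IOP replicates 1, 2 or 4, and the Lpl call for WT naïve replicates 1, 2 or 3 and WT IOP replicates 1 or 4, with log2 fold changes for Lgals3 of 1.26 to 1.41 and for Lpl of -0.99 to -0.80.

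The other 8 genes did not pass in WT IOP microglia. Cst7 had 171, 405, 432 and 191 normalized counts after IOP elevation, on both sides of its naïve values (log2 fold change -0.24, 95% interval -0.81 to 0.33), and Itgax had 169, 669, 958 and 261 (log2 fold change -0.63, 95% interval -1.57 to 0.31). In both genes replicates 1 and 4 were the low ones. Trem2 had 8442, 13606, 13576 and 9349 and Tyrobp 15619, 26201, 22715 and 17258, with log2 fold changes of -0.37 (-0.95 to 0.22) and -0.48 (-1.06 to 0.09). Clec7a had 4491, 8499, 7618 and 4033 and Axl 7344, 19393, 20486 and 8489.6, with log2 fold changes of 0.52 (-0.15 to 1.20) and 0.31 (-0.36 to 0.99). Replicates 2 and 3 of Clec7a and Axl stood above every naïve library and replicates 1 and 4 did not. Relative to the microglial markers of the same library, Lgals3, Clec7a and Axl passed the threshold as higher in WT IOP, with log2 differences of 1.87, 1.000 and 0.79, whereas the median of all genes was 0.46 on that scale.

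In KO microglia 7 of the 10 genes rose after IOP elevation, and 0 fell, where 5.06% of all genes tested rose. The median log2 fold change was 1.21, beside -0.12 over all genes tested. Cst7 had 149, 209.9, 291 and 159 normalized counts in KO naïve and 766, 1124, 1211 and 1072 in KO IOP libraries. All 4 IOP values were above the highest naïve value, with a log2 fold change of 2.39 (SE 0.27, limma, adjusted p = 0.000131). Itgax had 625, 792, 1686 and 714 after IOP elevation, with replicate 3 highest, and a log2 fold change of 2.05 (SE 0.45, limma, adjusted p = 0.0168). Lgals3 had 845, 1488, 1301 and 1370.2, all above the naïve values, with a log2 fold change of 1.75 (SE 0.32, limma, adjusted p = 0.00663). Tyrobp had 27134, 30403, 34126 and 30677 and Axl 20840.5, 18864, 25318 and 18644, also with no overlap (as for 11.7% of all genes tested), and log2 fold changes of 1.34 (SE 0.28) and 1.31 (SE 0.32) (limma, adjusted p = 0.0128 and 0.0231). Trem2 (17567, 16084, 20753 and 15515) and Clec7a (8958, 7113, 9237 and 7715) overlapped with naïve replicate 3, with log2 fold changes of 1.11 (SE 0.28) and 1.10 (SE 0.33) (limma, adjusted p = 0.0251 and 0.0424). Lpl had 2617, 2579.7, 1511 and 2344 and a log2 fold change of 0.60 (SE 0.21, limma, adjusted p = 0.0755).

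These counts move with the KO naïve libraries. The microglial markers rose in the same comparison, with 4 of 7 called and a median log2 fold change of 1.10, and 4 of 4 Y-linked genes and Cx3cr1 (-4.17) fell. Without KO naïve replicate 1, 2 or 4, 2 of the 10 genes were called each time, 4 were called without KO IOP replicate 3 (Cst7, Lgals3, Tyrobp and, not among the 7, Lpl at 0.78), and 0 were called without KO naïve replicates 1, 2 and 4 together. The calls that stayed without KO naïve replicate 1, 2 or 4 were those of Cst7 and Lgals3, while the Clec7a call was lost without any 1 of KO naïve replicates 1, 2 and 4 or KO IOP replicates 1 to 4 and the Trem2 call also without KO IOP replicate 2 (1.15). Against KO naïve replicate 3 alone the log2 fold changes were 1.82 for Cst7, 1.37 for Lgals3, 0.71 for Itgax, 0.37 for Axl, 0.20 for Tyrobp, 0.02 for Trem2 and -0.06 for Clec7a. Relative to the microglial markers of the same library, Cst7 and Itgax were called, with log2 differences of 1.16 and 0.81, and Trem2 and Clec7a turned to -0.13 and -0.14, where the median of all genes was -1.36. On this scale Cst7 stood at -6.77 ± 0.51 (log2, SD, n = 4) in KO naïve, -5.61 ± 0.32 in KO IOP and -2.86 ± 0.14 in KO ONC libraries, and at -7.12 ± 0.20, -6.89 ± 0.24 and -3.25 ± 0.48 in the WT groups.

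ONC and IOP elevation were also set against each other. In WT microglia 7 of the 10 genes were higher after ONC than after IOP elevation, and 0 lower, where 9.7% of all genes tested were higher and 12% lower, with a median of 1.76 over the 10 genes and -0.12 over all genes. The log2 differences were 4.35 for Cst7, 3.60 for Itgax, 2.41 for Lpl, 2.33 for Axl, 2.32 for Clec7a, 1.19 for Tyrobp and 1.13 for Trem2. The calls of Trem2 and Tyrobp were lost without WT ONC replicate 1 (log2 differences of 0.88 and 0.95), that of Trem2 also without WT ONC replicate 3 (1.09), and both without WT IOP replicates 1 and 4 (0.83 and 0.91). Without WT ONC replicate 2, Lgals3 (0.94) and Apoe (-1.69) were called as well. In KO microglia 5 genes were higher after ONC, where 1.36% of all genes tested were, with a median of 1.03 over the 10 genes and 0.03 over all genes. These were Cst7 (2.80), Itgax (2.70), Lpl (2.17), Clec7a (1.66) and Axl (1.38), and in each of the 5 the 4 ONC libraries lay above the 4 IOP libraries, as they did for Trem2 and Tyrobp, which were not called (0.60 and 0.67), and as 12.96% of all genes tested did not overlap. The Axl call was lost without KO IOP replicate 1, 2 or 4 or KO ONC replicate 1, 2 or 3, with log2 differences of 1.33 to 1.38. Lgals3 was at 1251 ± 281 (SD, n = 4) after IOP elevation and 1652 ± 279 (SD, n = 4) after ONC in KO, and its log2 difference of 0.42 (95% interval -0.24 to 1.08) was not past the threshold.

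KO was compared with WT in each state. In naïve retinas 0 of the 10 genes passed the threshold (limma), where 0.409% of all genes tested did, while 7 of the 10 had an unadjusted p under 0.05, edgeR called 0 and DESeq2 2. The median log2 difference was -0.76, beside 0.03 over all genes and -1.09 over the 7 microglial markers. Lpl was 2734 ± 214 (SD, n = 4) in WT and 1462 ± 140.5 (SD, n = 4) in KO naïve libraries, and every KO value, replicate 3 included, was below every WT value, with a log2 difference of -0.90 (SE 0.21, limma, adjusted p = 0.0562). Itgax did not overlap either (as 9.60% of all genes tested), at 590.3, 546, 667 and 765 in WT and 145, 162, 538 and 159 in KO, with a log2 difference of -1.58 (SE 0.45, limma, adjusted p = 0.0895). Tyrobp differed by -1.21 (SE 0.28, limma, adjusted p = 0.0562), with KO replicate 3 inside the WT range. Without KO naïve replicate 3, 5 genes were called as lower in KO: Trem2, Tyrobp, Lpl, Cst7 and Itgax. With the replicate number as a block, Tyrobp and Itgax were called (2 genes). Relative to the microglial markers, Gpnmb, Clec7a and Axl were called as higher in KO naïve microglia, by 2.81, 1.001 and 0.82 on the log2 scale, and the Lpl and Itgax differences were 0.19 and -0.49, where the median of all genes was 1.11.

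After IOP elevation 1 of the 10 genes was called between the genotypes, Cst7, as higher in KO, where 0.468% of all genes tested were higher. The median log2 difference was 0.71, beside -0.03 over all genes and 0.59 over the 7 microglial markers. Cst7 had 171, 405, 432 and 191 normalized counts in WT IOP and 766, 1124, 1211 and 1072 in KO IOP libraries. The lowest KO value was above the highest WT value, the log2 difference was 1.90 (SE 0.27, limma, adjusted p = 0.00046) and the exact two-sided permutation p was 0.0286, the smallest that 4 against 4 libraries allow. Cst7 was called under all 25 alternatives run for it, with log2 differences from 1.27 to 2.11, the lowest being that relative to the microglial markers, and adjusted p up to 0.0415 (limma, edgeR or DESeq2). Cx3cr1, Y-linked reads and lens genes also set KO IOP apart from WT IOP libraries. None of these alternatives had Y-linked or lens genes as a covariate. Cx3cr1 entered only as 1 of the 18 genes of the homeostatic covariate, which its values shift. The 4 Y-linked genes were all lower in KO IOP, with a median log2 difference of -5.25. Of 10 lens genes tested, 9 were called as lower in KO IOP, with a median log2 difference of -9.02. The part of Cx3cr1, sex or lens material in the Cst7 difference was not tested. Lpl was called as well without WT IOP replicate 3 (0.91) or without KO IOP replicate 3 (0.88). Trem2 and Tyrobp did not overlap between the genotypes after IOP elevation (as 12.98% of all genes tested) but differed by 0.66 and 0.61 on the log2 scale, which did not pass the threshold, and by 0.35 and 0.32 without WT IOP replicates 1 and 4.

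After ONC 0 of the 10 genes were called between the genotypes (limma), where 0.0877% of all genes tested were. KO here means the label, since most KO ONC libraries held the Spp1 reads given above. The part of those reads in this comparison was not tested. Of the 10, 1 had an unadjusted p under 0.05, edgeR called 0 and DESeq2 0. The median log2 difference was 0.16, beside 0.03 over all genes. Cst7 was 5654 ± 122 (SD, n = 3) in WT and 7259.9 ± 1368 (SD, n = 4) in KO libraries, a log2 difference of 0.34 (95% interval -0.27 to 0.96). The intervals were -0.51 to 0.75 for Trem2, -0.95 to 0.50 for Axl, -0.90 to 0.56 for Clec7a and -0.81 to 1.21 for Itgax, and each of them includes 0. Apoe had the largest difference, 1.58 (SE 0.49, limma, adjusted p = 0.287), and was called without WT ONC replicate 2, at 2.20.

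**Figure D4:**
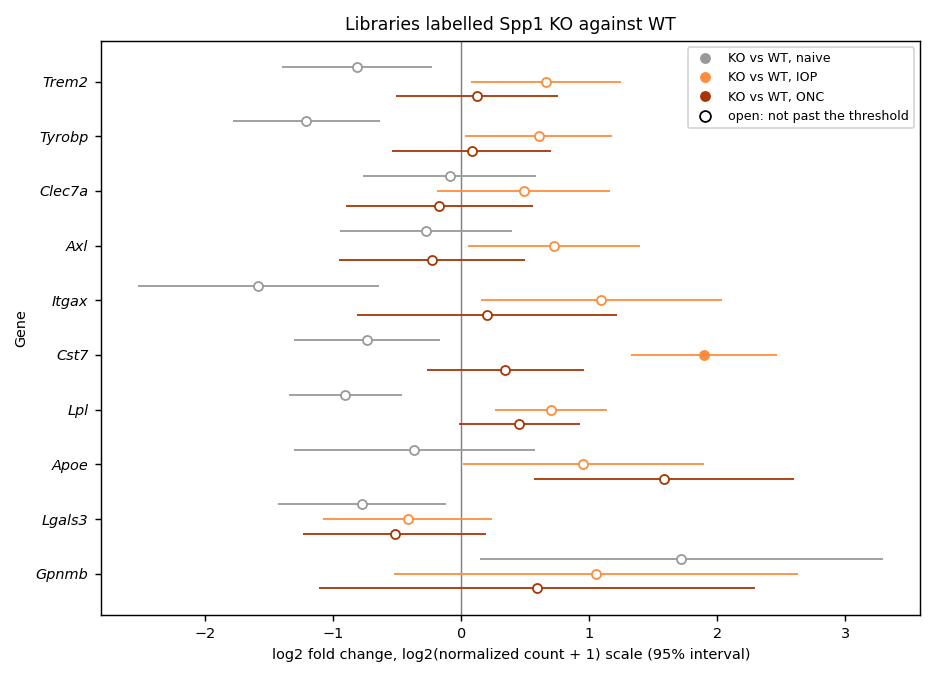
Log2 difference of KO against WT libraries (points) with the 95% interval from limma (lines) in naïve retinas, after IOP elevation and after ONC; the filled point passed the threshold. Cst7 after IOP elevation is the one filled point, and 9 of the 10 naïve differences lie below 0.

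The change from naïve to IOP retinas was tested for a difference between genotypes (interaction). 5 of the 10 genes were called, all with a larger change in KO, where 4.85% of all genes tested were called in that direction. The differences of the log2 fold changes were 2.68 (SE 0.64) for Itgax, 2.63 (SE 0.39) for Cst7, 1.82 (SE 0.39) for Tyrobp, 1.60 (SE 0.30) for Lpl and 1.47 (SE 0.40) for Trem2 (limma, adjusted p = 0.0164, 0.000781, 0.0105, 0.00524 and 0.0266). The median over the 10 was 1.40, over all genes -0.08 and over the 7 microglial markers 1.59, with 5 of these called and 1 of 4 Y-linked genes called in the opposite direction. Without KO naïve replicates 1, 2 and 4, 0 were called (limma, values of 2.06 for Cst7, 1.44 for Lpl, 1.34 for Itgax, 0.68 for Tyrobp and 0.38 for Trem2). Without WT IOP replicates 1 and 4, 1 was called, Cst7. Relative to the microglial markers the values were 0.92 for Cst7, which was called, 0.97 for Itgax, 0.10 for Tyrobp, -0.11 for Lpl and -0.24 for Trem2. On that scale Lgals3 (-1.36), Clec7a (-1.14) and Axl (-0.71) were called with a smaller change in KO, and the median of all genes was -1.79. The Trem2 call was lost without any 1 of WT naïve replicates 1 or 4, WT IOP replicates 1 or 4, KO naïve replicates 1, 2 or 4 or KO IOP replicate 3, with values from 1.28 to 1.47. For ONC, 0 of the 10 interactions were called (limma), where 0.0702% of all genes tested were, with 6 of the 10 at an unadjusted p under 0.05, 0 called by edgeR and 1, Lpl, by DESeq2. The Lpl value was 1.36 (SE 0.31, limma, adjusted p = 0.0866). Without KO naïve replicate 3 the count was 4 (Trem2, Tyrobp, Lpl and Itgax), and without WT ONC replicate 2 it was 2 (Apoe and Lpl). The part of the Spp1 reads in libraries labelled KO ONC was not tested here either.

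Apoe, the main lipid carrier of the nervous system, and Gpnmb did not pass in any of the 11 comparisons as fitted here. Apoe had 196911, 305618, 177049.5 and 250863 normalized counts in WT naïve, 140262, 400430.0, 221520.0 and 108996 in WT IOP and 30976, 211756 and 113531 in WT ONC libraries. In the KO groups it had 176807, 139615, 262251 and 149741 in naïve, 309561, 442553, 316187 and 439334 in IOP and 347228, 282750.4, 225539 and 245881 in ONC libraries. WT ONC replicate 1 was the lowest of the 23. In KO, every IOP library was above every naïve library (log2 fold change 1.07, SE 0.45, limma, adjusted p = 0.133), and every KO ONC library was above every WT ONC library, where 6.32% of all genes tested did not overlap between the genotypes after ONC. The 8 border macrophage genes, among them Mrc1, Cd163 and Lyve1, held 0.115 to 0.236% of the counts in WT naïve, 0.0125 to 0.0478% in WT ONC and 0.0463 to 0.142% in KO ONC libraries, and 0.0125% in WT ONC replicate 1. 7 of the 8 fell after ONC in WT and 0 in KO (limma). Their part in the Apoe values was not tested beyond the covariate, under which the change after ONC in WT was 1.34 in place of -1.33 on the log2 scale (limma, adjusted p = 0.348 and 0.0625). The change of Apoe after ONC in WT was called as lower with a mean of at least 50, both rescalings, the replicate block and the Müller glia or homeostatic covariate, and without WT ONC replicate 2.

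Gpnmb had 1653, 2108, 375 and 896 normalized counts in WT naïve, 1642, 5809, 1720.0 and 1238 in WT IOP and 225, 2422 and 1838 in WT ONC libraries. In the KO groups it had 11533, 2835, 1185 and 3586 in naïve, 2327, 6359.9, 3620.0 and 7048 in IOP and 1162, 865, 1119 and 4645 in ONC libraries. The spread within groups was wide, with the highest value, in KO naïve replicate 1, beside the highest share of 9 pigment cell genes (0.232%). KO IOP replicates 2 and 4 and KO ONC replicate 4, the highest of their groups for Gpnmb, held 0.0416%, 0.0374% and 0.0554% of pigment cell genes, against at most 0.00351% in the other KO IOP and KO ONC libraries. The melanosome gene Pmel had 7714 normalized counts in KO naïve replicate 1 and 67.5, 495, 285 and 499 in the WT naïve libraries. The log2 difference of Gpnmb between KO and WT naïve libraries was 1.72 (SE 0.76) and became 0.58 with the mean of the pigment cell list as a covariate. WT IOP replicate 2 and KO IOP replicate 3 had Gpnmb counts of 5809 and 3620.0 at pigment cell shares of 0.00932% and 0.00152%. The part of pigment cells in the Gpnmb values was not tested beyond the covariate.

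**Figure D5:**
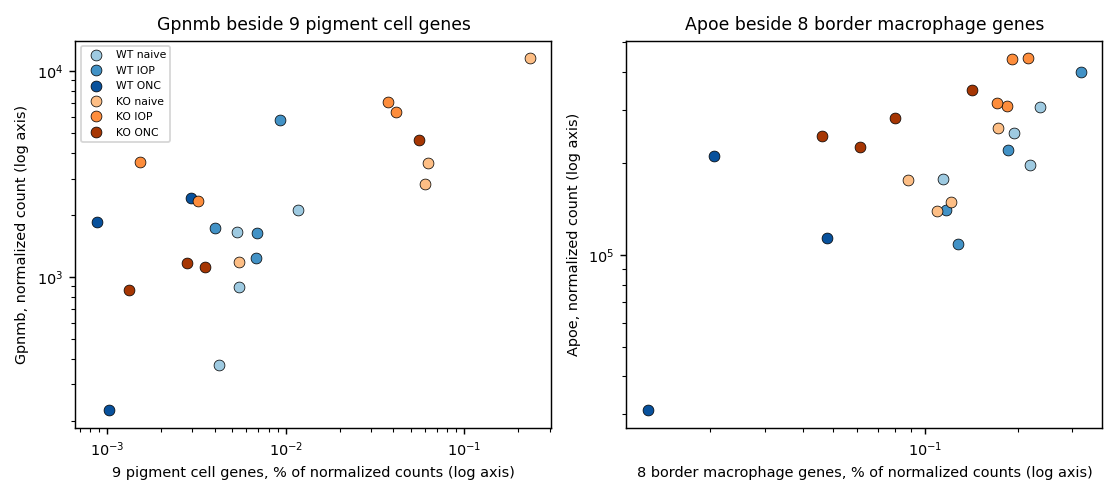
Left, Gpnmb against the summed share of 9 pigment cell genes, and right, Apoe against that of 8 border macrophage genes, 1 point per library and log axes throughout. The 6 libraries with the highest pigment cell share have Gpnmb counts of 2835 or more, as do WT IOP replicate 2 and KO IOP replicate 3 at lower shares. WT ONC replicate 1 is lowest in both border macrophage genes and Apoe.

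As a description over libraries that share groups and sorts, Trem2 and its adaptor Tyrobp had a Pearson r of 0.98 on the log2 scale, Clec7a and Axl 0.98, and Cst7 and Itgax 0.96. The mean r of a gene with the other 9 was 0.66 for Axl, the highest, 0.03 for Apoe and -0.23 for Gpnmb, whose highest r was with Apoe (0.54). With each group's mean subtracted, Trem2 and Tyrobp had 0.97 and Cst7 and Itgax 0.86, while Lpl fell to a mean of 0.24 and Lgals3 to 0.06, and the means of Apoe and Gpnmb were 0.21 and -0.13. Among the other genes tested, the 5 most like the set by their mean Pearson r with the 10 were H2-D1 (0.70), P2rx4 (0.70), Ctsb (0.70), Ccl5 (0.70) and H2-K1 (0.70). After subtraction of group means they were Nrp1 (0.61), Mapkapk3 (0.60), Ptprc (0.60), P2rx4 (0.59) and Gm2a (0.59). H2-D1 and H2-K1 encode class I histocompatibility heavy chains, P2rx4 an ATP-gated channel, Ctsb a lysosomal protease and Ccl5 a chemokine. H2-D1 had 45586 ± 4770.1 (SD, n = 4) normalized counts in WT naïve and 129366 ± 14037 (SD, n = 3) in WT ONC libraries.

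Other genes of the DAM programme were taken as a list of 33, 33 of them tested. After ONC 22 rose and 0 fell in WT microglia, with a median log2 fold change of 1.36, and 26 rose and 0 fell in KO microglia, with a median of 1.94. The shares called and the medians over all genes are those given with each comparison above. The largest rises in WT were those of the chemokine gene Ccl4 (3.82, SE 0.44), of Csf1, a growth factor of the macrophage lineage (3.55, SE 0.49), and of the cholesterol 25-hydroxylase gene Ch25h (3.39, SE 0.53). In KO they were Csf1 (4.08, SE 0.45), Ccl4 (3.72, SE 0.41) and Cd52 (3.12, SE 0.34). Csf1 had 125, 223, 327 and 279.5 normalized counts in WT naïve, 360.0, 414, 273 and 215 in WT IOP and 1643, 2811 and 4024 in WT ONC libraries. After IOP elevation 0 rose and 1, Serpine2, fell in WT (-1.11, SE 0.22, limma, 4 of 33 at an unadjusted p under 0.05), and 19 rose in KO, led by Ccl4 (1.82), Cd52 (1.66) and Ch25h (1.58). The median log2 fold change of the 33 in KO was 1.02, beside 1.10 for the 7 microglial markers. Values of this list without KO naïve replicates 1, 2 and 4, which were low in microglial markers, were not looked at. Between genotypes, 2 were lower in KO naïve microglia, Serpine2 (-1.48) and the cathepsin gene Ctsl (-1.20), and none was called after IOP elevation or after ONC (limma, 12 and 1 at an unadjusted p under 0.05).

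Of the 17 genes around TREM2 signalling, 2 rose after ONC in WT microglia, the adaptor genes Lat2 (1.17, SE 0.33) and Blnk (1.04, SE 0.29), and 1, the exchange factor gene Vav3, fell (-2.84, SE 0.94, with 0, 49.5 and 57.3 normalized counts in the WT ONC libraries). Among all genes tested 7.55% rose and 10.5% fell, so that 2 and 1 of 17 are near the shares over all genes. In KO 14 rose, led by Blnk (2.02), Lat2 (1.78) and Hcst (1.49), an adaptor related to TYROBP, and 10 rose after IOP elevation, led by Ms4a6d (1.37), the kinase gene Syk (1.37) and Lat2 (1.27). Over all genes tested, 12.7% rose after ONC and 5.06% after IOP elevation in KO. In WT IOP microglia 0 were called (limma, 2 at an unadjusted p under 0.05), where 1.56% of all genes tested were. The list's median log2 fold change was 0.42 after ONC in WT, 1.31 after ONC in KO and 1.02 after IOP elevation in KO, beside 0.08, 0.91 and 0.95 for 18 homeostatic microglial genes, which share 4 genes with the 7 microglial markers. Of these 18, 1 rose after ONC in WT (Olfml3, 1.29) and 11 in KO, led by Sparc (2.04), Fcrls (1.84) and Olfml3 (1.72), and none fell in either.

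Of 17 genes of lipid handling, 3 rose and 1 fell after ONC in WT, and 9 rose and 1 fell in KO. Over all genes tested, 7.55% rose and 10.5% fell in WT, and 12.7% rose and 11% fell in KO. The same shares hold for the lists below. The median log2 fold change of the 17 was 0.43 in WT and 0.98 in KO, beside 0.20 and 1.26 for the 7 microglial markers. The rises in WT included those of Soat1, which esterifies cholesterol (1.39, SE 0.38), and of the sterol exporter Abcg1 (1.18, SE 0.28). The largest changes in KO were those of the lysosomal cholesterol carrier Npc2 (2.11, SE 0.24), the exporter Abca1 (1.73, SE 0.26) and the receptor Vldlr (-1.53, SE 0.42). Among 6 genes of the AXL pathway, Socs1 (5.77, SE 1.34) and Socs3 (1.13, SE 0.30), suppressors of cytokine signalling, rose after ONC in WT, and Socs3 (1.99), the receptor Mertk (1.39) and the ligand Pros1 (1.29) in KO. The fitted change of Socs1 depends on the added count of 1, since it was low, with 0, 0, 0 and 9.29 normalized counts in WT naïve and 61.7, 85.2 and 172 in WT ONC libraries, and so does that of Tfec below, with 33.7, 52.3, 47.3 and 53.9 and 0, 4.60 and 0. Of 9 transcription factor genes, Mef2a (1.74) was among the 3 that rose and Tfec (-4.73) fell after ONC in WT, and 5 rose in KO, among them Spi1, the gene of PU.1 (2.04), and Tfeb (1.17).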

How the data were processed

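GFP+ microglia were sorted from dissociated retinas, and RNA was extracted and made into paired-end libraries with a SMARTER kit. The authors' paper gives salmon against mouse reference GRCm38, while the submitters' processing notes list STAR and DESeq2 with build GRCm38, so the aligner behind the table is uncertain. The authors deposited normalized counts, a signal value that divides the reads of each gene by a size factor of the library. Strandedness of the counting is not given in the sources used here. Steps between values gave whole reads within 0.01 of a read for 100.0% of values above 0 in all 23 libraries, and these recovered reads were used for edgeR and DESeq2 only.

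After adding 1 and taking log2, the 6 groups were fitted together in limma 3.58.1 (R 4.3.3, eBayes with trend, no covariate) for 11 comparisons over 17102 genes, with Benjamini-Hochberg adjustment over all of them. A fold change on this scale understates the change of low genes. Genes were called where the adjusted p was below 0.05 and the log2 fold change beyond 0.58 in either direction. Single genes were compared with exact permutation tests, two-sided. Gene names came from GENCODE identifiers (35436 of 35825 matched), and promoters from RefSeq. The 10 genes, the other lists and the tests were chosen with earlier results of these data known. The 10 genes are named in every comparison, with up to 3 called genes of largest change per pathway list and comparison described, the 5 genes most like the 10 by mean Pearson r before and after subtraction of group means, and Spp1, Cx3cr1 and the defining microglial markers as checks; Pmel, Mrc1, Cd163 and Lyve1 were named after their values were seen. Some genes that the rule names are not reported here. Groups came from the labels, with control called naïve, and times from the paper. In no pair of groups did all same-numbered libraries deviate together, so no pairing was used, though a pairing or a shared batch is not excluded. No 2 libraries were identical (0 pairs), and replicate pairs had Pearson r of 0.876 to 0.956. The fits were tested on simulated data. The alternatives were a pseudocount of 0.5 or 5, all genes kept or those with a mean of 50 or more, rescaling by upper quartile or quantiles, a replicate block, marker list covariates, fits of the compared groups alone, edgeR 4.0.16 and DESeq2 1.42.0 on the recovered reads, a call without the fold limit, and 1 library left out at a time. Added after the data were seen were values relative to the 7 microglial markers, a pigment cell covariate, and leaving out WT IOP replicates 1 and 4 or KO naïve replicates 1, 2 and 4. Other steps used pandas 2.3.3, scipy 1.17.1 and matplotlib 3.10.9 in Python 3.11.15.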

Additional observations from a re-analysis of the deposited data

Results flagged for a closer look

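In the KO naïve group, replicate 3 stood apart from the other 3 libraries for 3 of the 10 genes by Dixon's test at the 95% level, and it was higher in each: Tyrobp with 26563 normalized counts against 8402 to 9792 in the other 3, Itgax with 538 normalized counts against 145 to 162 in the other 3 and Clec7a with 8574 normalized counts against 2639 to 3133 in the other 3. These were 3 of 50 gene and group pairs tested, and chance flags about 1 in 20. The same library held 2.95% of its counts in the 7 microglial markers and the other 3 1.01% to 1.31%. It also had the lowest share of the 4 Y-linked genes in its group, 0.000701%, where the group median was 0.0192%. The part of either share in the gene values was not tested in itself, and values relative to the microglial markers stand in the report.

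The change from naïve to IOP retinas differed between the genotypes for 5 genes by the interaction in limma, with differences of log2 fold changes of 1.60 for Lpl, 1.47 for Trem2, 1.82 for Tyrobp, 2.68 for Itgax and 2.63 for Cst7. The naïve KO and the WT IOP libraries both entered these values, and 5 of the 7 microglial markers were called in the same direction.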

How the results depend on the processing

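Of the 41 pairs of a gene and a comparison that were called, 18 were called under every alternative run for them and 37 kept their sign in all. The reversals were those of Trem2 (-0.13) and Clec7a (-0.14) for KO IOP against naïve and of Trem2 (-0.24) and Lpl (-0.11) for the interaction with IOP, all relative to the microglial markers, where the median of all genes moved to -1.36 and -1.79, and of Clec7a for KO IOP against naïve with KO naïve replicates 1, 2 and 4 left out (-0.0628). The number of the 10 genes called changed by over 1.5 times as follows. For WT IOP against naïve (2), it was 0 with Müller glia covariate and WT IOP replicates 1 and 4 left out and 4 with homeostatic covariate. For KO IOP against naïve (7), it was 0 with KO naïve replicates 1, 2 and 4 left out, 1 with rod covariate, Müller glia covariate, the compared groups alone and pigment cell covariate, 2 with values relative to the microglial markers, 3 with homeostatic covariate and 4 with border macrophage covariate. For KO ONC against naïve (8), it was 3 with KO naïve replicates 1, 2 and 4 left out. For KO against WT in naïve retinas (0), it was 1 with rod covariate and the compared groups alone, 2 with a mean of at least 50, quantile normalization, the replicate block and DESeq2 and 3 with values relative to the microglial markers. For KO against WT after IOP elevation (1), it was 2 with DESeq2. For the interaction with IOP (5), it was 0 with Müller glia covariate and KO naïve replicates 1, 2 and 4 left out, 1 with WT IOP replicates 1 and 4 left out, 2 with rod covariate and 3 with homeostatic covariate and pigment cell covariate. For the interaction with ONC (0), it was 1 with homeostatic covariate and DESeq2. The causes were not tested. Leaving out 1 library of the compared groups at a time gave 0 to 2 for WT IOP against naïve, 6 to 9 for WT ONC against naïve, 2 to 8 for KO IOP against naïve, 8 each time for KO ONC against naïve, 5 to 9 for WT ONC against IOP, 4 to 5 for KO ONC against IOP, 0 to 5 for KO against WT in naïve retinas, 1 to 2 for KO against WT after IOP elevation, 0 to 1 for KO against WT after ONC, 4 to 6 for the interaction with IOP and 0 to 4 for the interaction with ONC. Same-numbered libraries of different groups had correlations of their deviations from -0.253 to 0.230, with 10 of 55 over 0.1. No pairing was evident, but such correlations cannot exclude a pairing or a shared batch. With the replicate block all 41 calls were kept, and the count changed by over 1.5 times in 1 comparison, where it rose from 0 to 2 (KO against WT in naïve retinas). The lowest value of any of the 10 genes in any library was 145 normalized counts, above the floor of 2.41 to 4.03. Depth was not weighed against the spread between libraries.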
